A study of Mus musculus with 2 samples.

Results

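Kupffer cells, the resident macrophages of the liver, were taken from single-cell RNA counts of mouse liver by a gate on marker genes. A barcode is the tag of 1 droplet, which usually holds 1 cell, and a unique molecular identifier (UMI) counts 1 captured RNA molecule. A barcode was a member when it had at least 500 UMIs, at most 50% of UMIs from mitochondrial genes, a UMI from at least 3 of the 8 genes C1qa, C1qb, C1qc, Cd5l, Clec4f, Vsig4, Marco and Timd4, and at least 0.5% of its UMIs from these 8 genes together. The members were thus chosen by their measured values of these genes. The gate held 191 barcodes, 88 on chow and 103 on the NASH diet, of 9025 barcodes that passed the UMI and mitochondrial limits and of 13240 deposited barcodes. Both libraries came from C57BL/6 mice, 1 from a liver on chow and 1 from a liver on a diet rich in fructose, fat and cholesterol that is used to model non-alcoholic steatohepatitis (NASH), each given for 6.5 weeks. All liver cell types were collected by collagenase digestion and Percoll gradients. The labels do not state the age or sex of the mice or how many were pooled.

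Kupffer cells sit in the liver sinusoids and clear bacteria, immune complexes, aged red cells and lipoproteins from portal and arterial blood. Their identity rests on macrophage factors such as PU.1 (Spi1) and Maf, together with liver-specific inputs that sustain Id3, Nr1h3 (the oxysterol receptor LXR alpha) and Spic. Clec4f is a galactose-binding lectin restricted to Kupffer cells in the mouse, Vsig4 is a complement receptor, Timd4 binds phosphatidylserine and marks resident cells of embryonic origin, Cd5l is a secreted scavenger protein, Marco is a scavenger receptor, and the C1q genes encode the chains of the first complement component. In steatohepatitis, resident cells can be lost and replaced by monocyte-derived macrophages, which are known to express little Timd4, and macrophages with lipid-handling genes such as Trem2, Gpnmb and Cd9 appear.

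Each diet had 1 library, so differences between the diets could not be tested, and the intervals given are exact 95% intervals that cover counting error only. They leave out the spread between cells and between mice. Levels are given in CPM, the UMIs of a gene scaled to a pool of 1000000 UMIs. The Kupffer barcodes were 1.92% (1.54 to 2.36, Clopper-Pearson) of the chow barcodes within the limits and 2.32% (1.89 to 2.80) of those of the NASH diet library, and these intervals overlapped. Over all deposited barcodes the shares were 1.196% (0.960 to 1.47) and 1.75% (1.43 to 2.12). The libraries shared 69 barcode sequences, among them 2 Kupffer barcodes of each library, and 0 sequences were Kupffer barcodes in both.

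The chow and NASH diet Kupffer barcodes differed in depth and in mitochondrial RNA. UMIs per Kupffer barcode ran from 542 over a median of 4490 to 22543 in chow, and from 750 over a median of 1149 to 21319 on the NASH diet. The pooled Kupffer UMIs were 562342 and 221408. Genes per Kupffer barcode had a median of 1957 in chow and 482 on the NASH diet. Mitochondrial UMIs made up a median of 11.6% of a chow Kupffer barcode and 35.0% of a NASH diet one, against 13.7% and 28.9% in the other barcodes within the limits. Hepatocyte markers, RNA of the most abundant liver cell, made up a median of 0.516% and 2.45% of a Kupffer barcode. Their part in the differences between the libraries described here was not tested as a cause, and values of the gene lists among deep barcodes, those with at least 2000 UMIs, are given beside them.

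**Figure D1:**
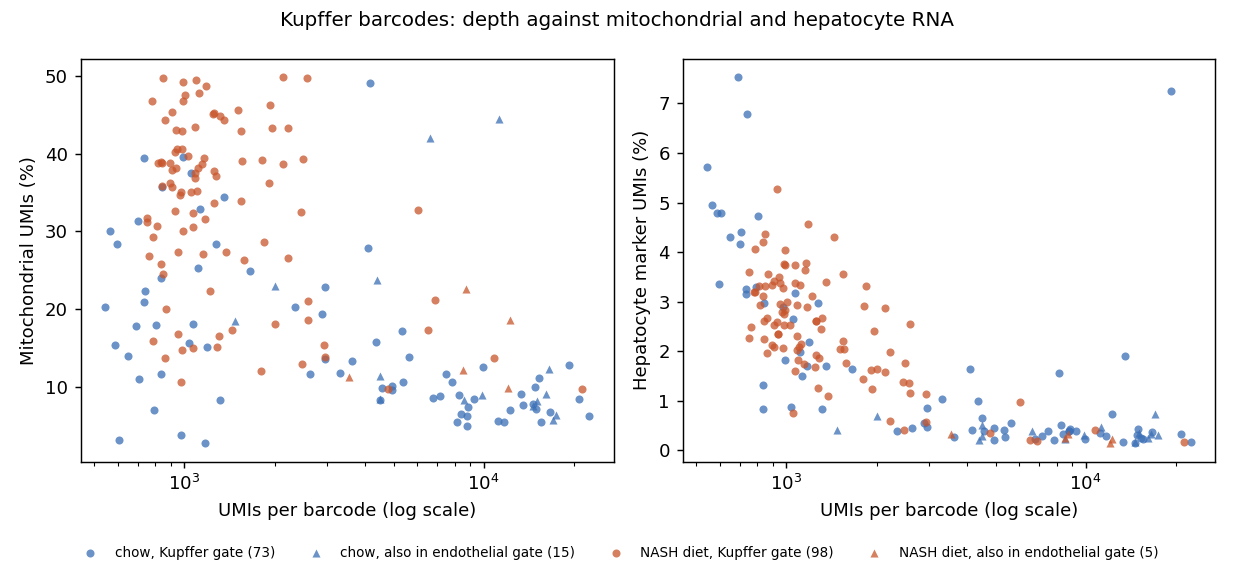
Each point is 1 Kupffer barcode, placed by its UMIs (log scale) and by the share of its UMIs from mitochondrial genes (left, in %) or hepatocyte markers (right, in %), with chow in blue, the NASH diet in orange, and triangles for barcodes that also met the endothelial gate. NASH diet barcodes crowd below 2000 UMIs at high mitochondrial shares, and the hepatocyte share falls with depth in both libraries.

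The hepatocyte marker share was lower in deeper Kupffer barcodes of both libraries. Across barcodes, Spearman's rank correlation between UMIs and the hepatocyte share was −0.75 in chow (88 barcodes) and −0.65 on the NASH diet (103 barcodes), where both measures share the UMI total. That between UMIs and the mitochondrial share was −0.55 and −0.25. A NASH diet barcode of a given depth was not poorer in hepatocyte RNA in all classes: among barcodes with fewer than 1000 UMIs the summed markers were at 37823 CPM in chow and 30738 CPM on the NASH diet, and among those with 5000 or more UMIs at 6902 and 2770 CPM, while from 1000 to under 5000 UMIs the NASH diet level was the higher.

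The gate genes were lower on the NASH diet in all 8 cases. Since they chose the members, their levels are a description with no test. C1qa (chr4:136895917-136898803, minus strand, GRCm38) was at 4311 CPM over the chow Kupffer barcodes and 3022 CPM over the NASH diet ones. C1qb went with it at 3887 and 2873 CPM, and C1qc at 3852 and 2452 CPM. These 3 genes, which encode the chains of 1 protein complex, had the least negative log2 ratios of the NASH diet over chow among the gate genes, from −0.65 to −0.44.

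Cd5l (chr3:87357881-87371073, plus strand) was at 4833 and 2764 CPM, a log2 ratio of −0.80. Clec4f (chr6:83644542-83656187, minus strand) was at 3613 and 1843 CPM, a log2 ratio of −0.97. Vsig4, on the X chromosome, was at 2198 and 1088 CPM, and Timd4 (chr11:46810800-46844332, plus strand) at 350.3 and 154 CPM. Timd4 was thus the gate gene with the lowest level in both libraries. Marco was at 770.0 and 339 CPM, but 77.3% of its NASH diet UMIs came from 1 barcode. In the other barcodes within the limits the 8 genes summed to 5.83 CPM in chow and 18.9 CPM on the NASH diet.

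Gate genes were unevenly spread among the members. C1qa UMIs per barcode ran from 0 over a median of 13 to 162 in chow and from 0 over 3 to 40 on the NASH diet. Clec4f UMIs ran from 0 over 12.5 to 99 and from 0 over 1 to 64. Both genes thus overlapped between the libraries barcode by barcode, with chow reaching higher. Timd4 had a UMI in 49 of 88 chow and 16 of 103 NASH diet Kupffer barcodes, and Marco in 40 and 11. All 8 gate genes had a UMI in 32 chow barcodes and in 5 NASH diet barcodes, while exactly 3 had one in 8 and 28. The gate genes summed to from 0.547% over a median of 1.99% to 8.18% of a chow member and from 0.507% over 1.34% to 3.49% of a NASH diet member.

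The threshold of 0.5% cut through a thinly filled range in chow and a fuller one on the NASH diet. The lowest members had 0.547% and 0.507%, and the barcodes just outside, with at least 3 gate genes, had 0.465% in chow and 0.491% on the NASH diet. Outside the threshold in this way were 4 chow and 29 NASH diet barcodes.

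The sequences upstream of gate genes show what these co-occurring genes have next to their starts. GAGGAA is a core that PU.1, the factor all macrophages need, can bind. The 250 bases before the start are printed 5′ to 3′ on the gene's strand from RefSeq (GRCm38.p6), with GAGGAA, or TTCCTC for a match on the other strand, in capitals. The 4 shown are gate genes that hold a match, each from a different chromosome: Vsig4 at chrX:96293439-96293688 (minus strand), Marco at chr1:120505025-120505274 (minus), Cd5l at chr3:87357631-87357880 (plus) and C1qb at chr4:136886201-136886450 (minus).
Vsig4: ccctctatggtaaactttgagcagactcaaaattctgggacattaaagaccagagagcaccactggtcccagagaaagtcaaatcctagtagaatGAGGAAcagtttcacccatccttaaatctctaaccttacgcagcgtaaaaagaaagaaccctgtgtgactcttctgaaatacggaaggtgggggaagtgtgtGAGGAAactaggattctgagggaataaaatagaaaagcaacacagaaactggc
Marco: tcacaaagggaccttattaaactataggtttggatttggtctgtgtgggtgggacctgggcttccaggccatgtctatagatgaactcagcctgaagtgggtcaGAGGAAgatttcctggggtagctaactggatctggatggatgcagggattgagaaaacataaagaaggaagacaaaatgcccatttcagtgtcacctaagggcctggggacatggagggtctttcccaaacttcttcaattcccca
Cd5l: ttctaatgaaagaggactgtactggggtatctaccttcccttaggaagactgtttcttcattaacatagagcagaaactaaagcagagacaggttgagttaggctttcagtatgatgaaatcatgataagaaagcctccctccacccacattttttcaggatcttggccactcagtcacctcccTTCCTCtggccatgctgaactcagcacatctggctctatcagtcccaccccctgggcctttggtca
C1qb: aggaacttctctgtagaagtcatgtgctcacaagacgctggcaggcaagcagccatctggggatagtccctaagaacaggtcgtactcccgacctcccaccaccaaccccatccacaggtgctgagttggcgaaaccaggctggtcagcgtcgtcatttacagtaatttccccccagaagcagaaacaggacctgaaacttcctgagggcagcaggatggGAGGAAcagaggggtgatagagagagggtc
Vsig4 has 2 matches, beginning 155 and 53 bases before the start, Marco 1 at 146 bases, Cd5l 1 at 66 bases and C1qb 1 at 30 bases. C1qc holds 1 as well, and Clec4f and Timd4 hold 0 in these 250 bases, so 5 of the 7 gate genes with an entry had a match. Of all 32851 upstream windows of the same length in the table, 23.3% hold GAGGAA on either strand. Of the 662 genes described next, 518 had an entry and 28.8% of these held it. A match describes letters and does not show binding.

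**Figure D2:**
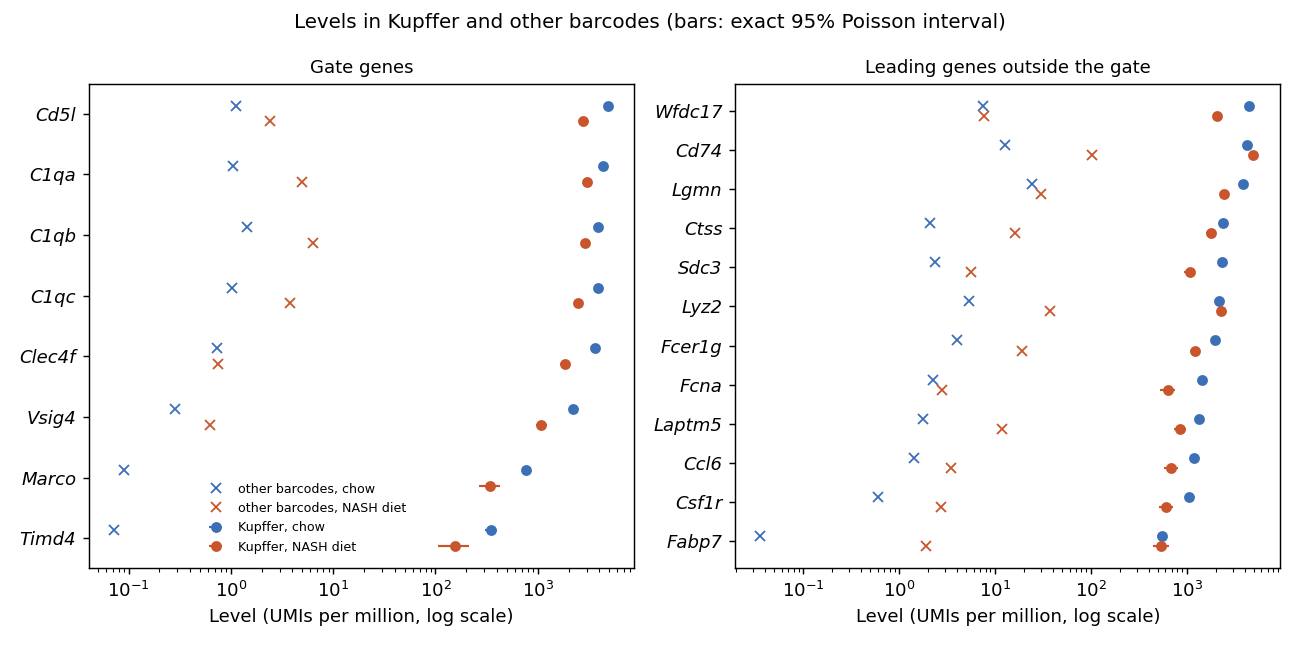
Level in CPM (log axis) of the 8 gate genes (left) and of the 12 leading genes outside the gate (right) over Kupffer barcodes (circles, exact 95% Poisson intervals) and over other barcodes within the limits (crosses), with chow in blue and the NASH diet in orange. Gate genes outside Kupffer barcodes stay at 6.30 CPM or less, and a gene with 0 UMIs there has no cross.

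Outside the gate, a broad macrophage program came with the chosen genes. Of 5422 genes with at least 20 UMIs over both Kupffer pools, 662 were at least 4-fold higher in Kupffer than in other barcodes of both libraries (12.2%, with a pseudocount of 10 CPM). Since the gate itself set this contrast, the count is a description. All 22 macrophage genes were among them, all 8 tested genes of MHC class II presentation, and 23 of the 29 Kupffer identity genes outside the gate. Of the 5 markers that name the cells, Clec4f, Cd5l, C1qa, Vsig4 and Timd4, all were read in both libraries.

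The genes that led this contrast cover secretion, the lysosome and signalling. Wfdc17, a small secreted protein of myeloid cells, was at 4501 CPM in chow and 2064 CPM in the NASH diet Kupffer barcodes, against 7.58 and 7.64 CPM in the other barcodes. Sdc3, a heparan sulfate proteoglycan, was at 2321 and 1075 CPM. The proteases Ctss (cathepsin S) and Lgmn (legumain) were at 2369 and 1770 CPM and at 3830 and 2416 CPM. The chemokine Ccl6 was at 1183 and 687 CPM, and Fcna, the lectin ficolin A of the complement system, at 1456 and 632 CPM. Csf1r, the receptor for the growth factor that macrophages depend on, was at 1044 and 609.7 CPM.

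A few of the leading genes were nearly level between the libraries. Lyz2, lysozyme, was at 2184 CPM (2063 to 2309) in the chow pool, against 2285 CPM (2091 to 2493) on the NASH diet. Fabp7, a fatty acid binding protein, was at 546 and 542 CPM. Cd74, the invariant chain of MHC class II, was at 4291 CPM (4121 to 4466) and 4932 CPM (4644 to 5234). Its level in the other barcodes was 12.9 and 102 CPM. Fcer1g, an Fc receptor chain, and Laptm5, a lysosomal membrane protein, completed the leading genes at 1956 and 1219 CPM and at 1328 and 858 CPM.

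RNA of other cell types was present in some Kupffer barcodes. Of the members, 15 in chow and 5 on the NASH diet also met a gate of the same form on 12 liver endothelial markers, and 16 and 2 met one on 8 leukocyte markers, of which macrophages express most. The barcodes in both the Kupffer and the endothelial gate were deep, with medians of 9848 and 8758 UMIs. They held 93.2% and 76.6% of the endothelial marker UMIs of all Kupffer barcodes. They also held 83.9% and 57.6% of the mesenchymal marker UMIs, led by Dcn (decorin, 699 UMIs in 17 chow barcodes), while holding 26.7% and 20.4% of all Kupffer UMIs. Endothelial markers were at 0 UMIs in 43 and 87 of the members.

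Lymphoid and dendritic cell markers had low summed levels. The 12 T and NK cell markers summed to 7.11 CPM in chow and 45.2 CPM in the NASH diet Kupffer barcodes, with Gzma, Ncr1 and Skap1 at 0 in both. The 10 B and plasma cell markers summed to 12.4 and 31.6 CPM, with Cd79a, Ms4a1 and Igkc among those at 0 in both, and the 6 plasmacytoid markers to 0 and 13.5 CPM. The 9 conventional dendritic cell markers summed to 44.5 and 72.3 CPM, with Flt3 and Ccr7 at 0 in both. They were higher than in the other barcodes within the limits, at 2.84 and 10.0 CPM. In those other barcodes T and NK markers were at 21.1 and 45.1 CPM, B and plasma markers at 67.1 and 451 CPM and plasmacytoid markers at 5.08 and 22.0 CPM. Cholangiocyte markers summed to 10.7 and 9.03 CPM, with Krt19, Krt7 and Sox9 at 0. For scale, 1 UMI is 1.78 CPM in the chow and 4.52 CPM in the NASH diet pool.

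More genes were lower than higher in the NASH diet Kupffer pool. Of the 5422 genes, 514 were at least 2-fold lower (9.48%) and 117 at least 2-fold higher (2.16%), so 18.5% of the differing genes were higher. The median gene had a log2 ratio of −0.29. With mitochondrial UMIs left out of the totals the median was −0.08, and 331 genes were lower and 205 higher, which made 38.2% higher. The list medians given next are to be read against −0.29, and the counts of lower and higher genes against 9.48% and 2.16%. Counts among barcodes with at least 2000 UMIs are to be read against 420 lower and 178 higher of 5052 genes tested there.

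**Figure D3:**
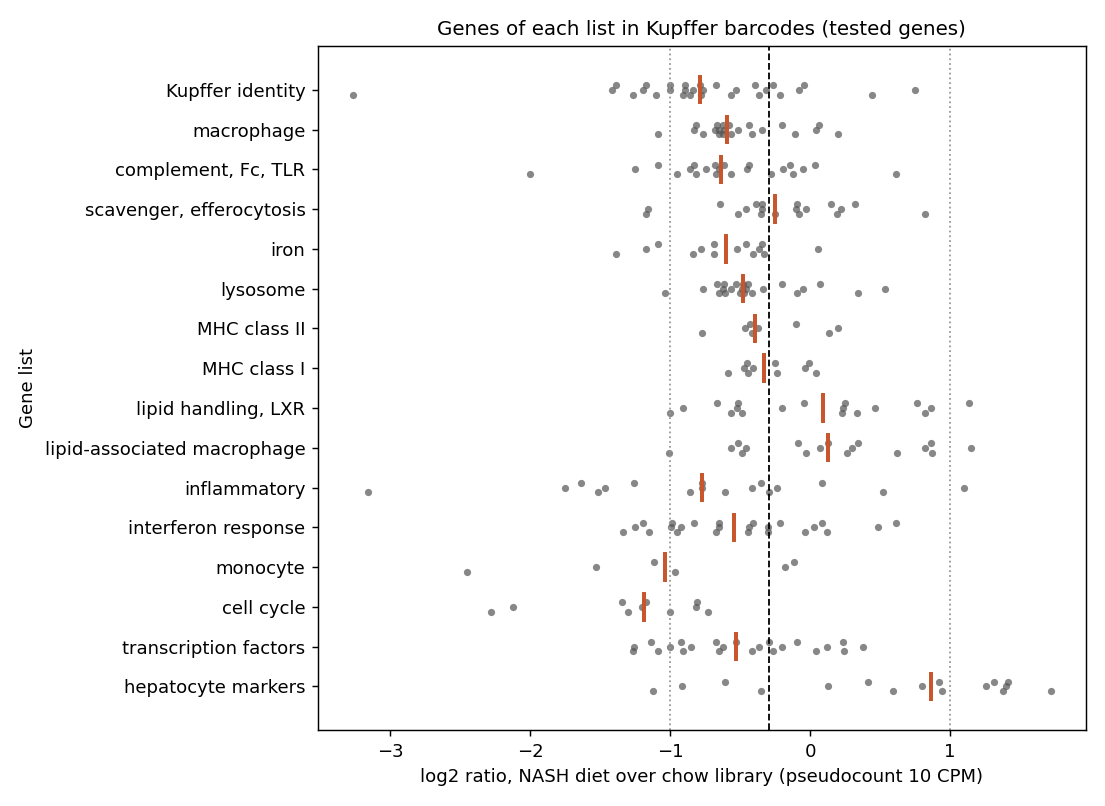
The log2 ratio of the NASH diet over the chow library (pseudocount of 10 CPM) for each tested gene of 16 gene lists in Kupffer barcodes, with each list's median as an orange bar, the median of all 5422 tested genes (−0.29) as a dashed line and 2-fold differences as dotted lines. Kupffer identity, inflammatory, monocyte and cell cycle genes sit mostly left of the dashed line, lipid genes and hepatocyte markers mostly right of it.

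Kupffer identity genes outside the gate were lower on the NASH diet. All 29 were tested, 7 were at least 2-fold lower and 0 higher, with a median log2 ratio of −0.79. Their summed level was 16817 CPM (16480 to 17160) in the chow pool, against 9444 CPM (9044 to 9858) on the NASH diet, a log2 ratio of −0.83 (−0.90 to −0.76). The share per barcode ran from 0% over a median of 1.45% to 3.97% in chow and from 0% over 0.517% to 2.70% on the NASH diet, so barcodes of the libraries overlapped. Among barcodes with at least 2000 UMIs, 57 in chow and 24 on the NASH diet, the summed log2 ratio was −0.46 (−0.54 to −0.39). There 3 of the 29 were lower and 1 higher, near the shares over all genes (420 lower and 178 higher of 5052). The median was −0.32, against −0.11 over the 5052 genes tested there. With mitochondrial UMIs left out 4 of the 29 were lower. Without barcodes that also met the endothelial gate 14 of 28 were lower. That count is to be read against 621 lower of the 4073 genes tested in that setting, with a median over all genes of −0.41. In the barcodes outside the gate the same genes summed to 759 and 738 CPM.

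The 7 lower identity genes included scavenging and iron genes, and of the 7 only Hmox1 (log2 ratio −1.12) and Cxcl13 (65 and 0 UMIs) were still at least 2-fold lower among barcodes with at least 2000 UMIs. Hmox1, heme oxygenase, was at 1928 CPM in chow and 732 CPM on the NASH diet, a log2 ratio of −1.39, with UMIs per barcode from 0 over 3.5 to 139 and from 0 over 0 to 35. Cd163, the receptor for hemoglobin bound to haptoglobin, was at 491 and 212 CPM (log2 ratio −1.17). Fcna and Sdc3 had log2 ratios of −1.19 and −1.10. Spic, the factor tied to iron-recycling macrophages, had 81 and 12 UMIs (−1.26), 38.3% of the chow UMIs in 1 barcode. Dmpk, a kinase gene, was at 427 and 154 CPM (−1.42), and Cxcl13 completed the 7.

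Cxcl13, a chemokine for B cells, had the lowest log2 ratio among the genes named by the rule. It had 73 UMIs in 25 chow Kupffer barcodes and 1 UMI on the NASH diet, a log2 ratio of −3.27 with the pseudocount and a counting interval of −10.17 to −2.32 without it. Slc40a1, the iron exporter ferroportin, had the most UMIs of the identity genes, at 2349 and 1310 CPM (log2 ratio −0.84), and at −0.32 among barcodes with at least 2000 UMIs. Lyve1, a hyaluronan receptor, was the identity gene with the highest log2 ratio at 0.75, from 28 and 20 UMIs. Without barcodes that also met the endothelial gate, Lyve1 had 0 UMIs in chow and 10 UMIs in 2 NASH diet barcodes.

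General macrophage genes were also lower, by less in sum than the identity genes. Of 22, 1 was at least 2-fold lower (Cfp, properdin, at 925 and 429 CPM) and 0 higher, with a median of −0.60. Their summed levels were 28127 and 21499 CPM, a log2 ratio of −0.39 (−0.43 to −0.34), and −0.29 among barcodes with at least 2000 UMIs, where 0 of the 22 were past 2-fold. The phagocyte receptor Adgre1 (F4/80) was at 553 and 307 CPM. Of the 23 tested transcription factors of macrophages, 4 were lower (Id2, Spic, Cebpb and Rbpj). Their summed log2 ratio was −0.52, but −0.056 (−0.15 to 0.041) among barcodes with at least 2000 UMIs. There 2 of the 23 were lower, near the share over all genes tested there. The factor Maf was nearly level at 763 and 786 CPM, a log2 ratio of 0.04. Without barcodes that also met the endothelial gate, Maf was at 524 and 403 CPM (−0.37). The summed log2 ratio of the transcription factors was −0.84 there. Of 21 tested 7 were lower, against 621 of 4073 genes.

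Iron genes were lower as well. Of 14 tested iron genes 3 were lower (Hmox1, Cd163 and Hamp) and 0 higher, with a median of −0.60 and summed levels of 23196 and 16431 CPM. With at least 2000 UMIs per barcode 2 were lower and the summed log2 ratio was −0.57. The ferritin chains made up more of these than any other pair of genes, with Ftl1 at 8105 and 6395 CPM and Fth1 at 6587 and 5117 CPM. Hamp, the hepatocyte hormone hepcidin, was at 414 and 189.7 CPM in Kupffer barcodes and at 3990 and 1434 CPM in the others, so it was lower on the NASH diet in both.

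Genes of lipid-associated macrophages were higher in sum on the NASH diet through Apoe, and the others were lower in sum. The 17 tested genes of lipid-associated macrophages had a median log2 ratio of 0.13, with 1 higher (Capg) and 1 lower (Fabp5), and summed to 22904 CPM (22510.3 to 23303) in the chow pool, against 29190.5 CPM (28483 to 29911) on the NASH diet. Their summed log2 ratio was 0.35 (0.31 to 0.39), and 0.27 (0.22 to 0.32) among barcodes with at least 2000 UMIs. Apoe, the apolipoprotein of remnant lipoproteins, made up 46.5% of the sum in chow and 66.6% on the NASH diet. Without Apoe the other 19 genes summed to 12243 and 9738 CPM, a log2 ratio of −0.33 (−0.40 to −0.26), and among barcodes with at least 2000 UMIs it was 0.013 (−0.066 to 0.090).

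Apoe (chr7:19696109-19699188, minus strand) was read in all 191 Kupffer barcodes. It was at 10661 CPM over the chow and 19453 CPM over the NASH diet Kupffer barcodes, a log2 ratio of 0.87 (0.81 to 0.92). Per barcode it ran from 0.0999% over a median of 0.819% to 8.43% of UMIs in chow and from 0.104% over 1.85% to 10.5% on the NASH diet, so the ranges overlapped and the NASH diet median was the higher. Apoe was also abundant outside the gate, at 9065 and 13114 CPM, and the part of free RNA in its Kupffer level was not tested. Among barcodes with at least 2000 UMIs its log2 ratio was 0.53. Apoc1, another apolipoprotein, was at 3884 and 4557 CPM in Kupffer barcodes and at 11034 and 14221 CPM outside them.

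The defining genes of lipid-associated macrophages had few UMIs. Trem2, a lipid-sensing receptor, had 28 UMIs in 17 chow barcodes and 22 UMIs in 14 NASH diet barcodes, 49.8 and 99.4 CPM, a counting interval of 0.12 to 1.86 for the log2 ratio. Gpnmb had 16 and 8 UMIs, 93.8% of the chow UMIs in 1 barcode, and Spp1 had 1 and 1. Cd9, a tetraspanin, had 41 and 26 UMIs. Cd36, the fatty acid uptake receptor, was at 203 and 366 CPM (log2 ratio 0.82, counting interval 0.42 to 1.28), read in 34 and 24 barcodes. Capg, an actin capping protein, had 38 and 36 UMIs in 17 and 20 barcodes (log2 ratio 1.15), and Lpl, lipoprotein lipase, was at 1037 and 723 CPM.

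LXR targets and lipid handling genes gave 18 tested genes with a median of 0.09, 1 higher and 0 lower, and with 3 higher among barcodes with at least 2000 UMIs. The higher one over all barcodes was Fabp4, with 56 and 51 UMIs in 8 and 12 barcodes, of which 60.7% and 49.0% came from 1 barcode each. The receptor Nr1h3 itself was at 644 and 339 CPM (log2 ratio −0.91). Its targets Abca1, a cholesterol exporter, Abcg1 and Pltp were at 386 and 257 CPM, at 167 and 199 CPM and at 535 and 519 CPM. The receptor and its targets thus did not share 1 level of difference. Genes of cholesterol synthesis were scarce in Kupffer barcodes, at 413 and 266 CPM summed, against 4073 and 781 CPM in the other barcodes.

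Inflammatory genes had a lower median log2 ratio than all genes, and the sign of their sum among deep barcodes turned on single genes. Of 17 tested, 6 were at least 2-fold lower (Il1b, Il1a, Ccl2, Cxcl2, Nlrp3 and Il18) and 1 higher (Cxcl9), with a median log2 ratio of −0.77. The summed levels were 3413 and 2484 CPM, a log2 ratio of −0.46 (−0.60 to −0.32), while among barcodes with at least 2000 UMIs it was −0.00433 (−0.15 to 0.14), where 5 of 17 were lower and 1 higher and the median was −0.36. Cxcl9, an interferon-induced chemokine, had 146 and 126 UMIs, and 98.4% of the NASH diet UMIs came from 1 barcode. Without Cxcl9 the summed log2 ratio was −0.72 (−0.88 to −0.57), and −0.34 (−0.51 to −0.17) among barcodes with at least 2000 UMIs. Without Ccl6, the gene with the most UMIs, it was −0.31 (−0.48 to −0.15) over all Kupffer barcodes. Among those with at least 2000 UMIs it was then 0.25 (0.081 to 0.42). Il12b had 0 UMIs in both libraries. In the barcodes outside the gate the inflammatory list was also lower on the NASH diet, at 406 and 236 CPM (log2 ratio −0.78).

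Single inflammatory genes differed more than their sum. Ccl2, the monocyte chemoattractant (chr11:82035571-82037453, plus strand), had 90 UMIs in 27 chow barcodes and 2 UMIs in 2 NASH diet barcodes, a log2 ratio of −3.16 with a counting interval of −7.21 to −2.25. Its highest chow barcode had 23 UMIs and its highest NASH diet barcode 1. Among barcodes with at least 2000 UMIs the log2 ratio was −2.82. Il1b had 108 UMIs in 25 and 14 UMIs in 7 barcodes, with 38.9% and 42.9% in 1 barcode each, and Cxcl2 had 39 and 3 UMIs in 5 and 1. Cxcl16, a membrane-bound chemokine, was at 276 and 294 CPM.

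Interferon response genes were lower in the pooled and in the deep barcodes. Of 24 tested, 4 were lower (Ifit3, Ifi204, Igtp and Zbp1) and 0 higher, with a median of −0.55. The summed levels were 5486 and 3437 CPM, a log2 ratio of −0.67 (−0.79 to −0.56), and −0.52 (−0.66 to −0.39) among barcodes with at least 2000 UMIs, where 4 were lower and 2 higher. Ifitm3, a membrane protein that blocks virus entry, led the list at 1583 and 989 CPM, against 1054 and 692 CPM outside the gate. Ifi27l2a was at 919 and 456 CPM, against 7.51 and 19.3 CPM outside. The whole interferon list summed to 1580 and 1200 CPM outside the gate, a log2 ratio of −0.40, so it was lower there too.

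Genes of antigen presentation were close between the libraries in the pooled barcodes. By depth class, as given below, class II levels were higher on the NASH diet in some classes and lower in others. Of 8 tested MHC class II genes and of 10 class I genes, 0 were past 2-fold in either direction, with medians of −0.39 and −0.33. Class II genes summed to 13309 CPM (13009 to 13614) in the chow pool, against 12529 CPM (12067 to 13004) on the NASH diet, a log2 ratio of −0.09 (−0.15 to −0.02), which was 0.16 when mitochondrial UMIs were left out and −0.29 among barcodes with at least 2000 UMIs. H2-Ab1, a class II chain, was at 2033 and 1892 CPM, and H2-Aa at 2271 and 1644 CPM. B2m, the light chain of class I, was at 3855 and 2814 CPM and H2-K1 at 2410 and 2398 CPM.

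Receptor lists differed from one another. Of 22 tested complement, Fc receptor and Toll-like receptor genes, 3 were lower (Cfp, Ly96 and Tlr2) and 0 higher, against 9.48% and 2.16% over all genes. Their median was −0.63 and their summed log2 ratio −0.61. Deep barcodes had 2 lower and 1 higher, near the shares over all genes tested there, with a sum at −0.51. Tlr2 had 27 and 1 UMIs. In the barcodes outside the gate this receptor list was lower as well, at 1685 and 873 CPM (log2 ratio −0.95). Of 19 scavenger and efferocytosis genes, 2 were lower (Msr1 and Cd163), near the 9.48% over all genes, with a median of −0.25. Their summed log2 ratio was −0.31, and 0.11 (−0.016 to 0.23) among barcodes with at least 2000 UMIs, where 0 were lower and 1 higher. Without barcodes that also met the endothelial gate it was −0.52. Mrc1, the mannose receptor, was at 759 and 578 CPM. Of 18 receptors for niche signals, 1 was lower and 0 higher, with a median of −0.15, and their sum was at −0.43, and at −0.061 (−0.23 to 0.10) among barcodes with at least 2000 UMIs. The niche sum was at −0.65 without barcodes that also met the endothelial gate. The lower gene was Csf2rb, the shared receptor chain for GM-CSF, IL-3 and IL-5, with 145 UMIs in 36 chow barcodes and 10 UMIs in 8 NASH diet barcodes, 258 and 45.2 CPM and a log2 ratio of −2.28. It was −2.01 among barcodes with at least 2000 UMIs.

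Lysosomal genes were at 30633 CPM in chow and 22420 CPM on the NASH diet, a log2 ratio of −0.45 (−0.50 to −0.40). Among barcodes with at least 2000 UMIs it was −0.11, and without barcodes that also met the endothelial gate −0.61. The cathepsins Ctsb and Ctsd were at 6391 and 4327 CPM and at 1937 and 1409 CPM, and Psap, the saposin precursor, at 3060 and 2958 CPM.

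Hepatocyte markers were higher in the pooled NASH diet Kupffer barcodes. Among the deep ones they were lower in sum, with 1 marker-rich chow barcode included. They summed to 7803 CPM (7574 to 8037) in the chow pool, against 14069 CPM (13579 to 14572), with a summed log2 ratio of 0.85 (0.78 to 0.92), with 6 of 16 higher (Alb, Apoa1, Apoa2, Apob, Cyp2e1 and Mup3) and 1 lower (Hpx). Among barcodes with at least 2000 UMIs the log2 ratio was −0.28 (−0.40 to −0.16). The median share of these deep barcodes went the other way, at 0.387% in chow and 0.581% on the NASH diet. In chow, 1 deep barcode with 19258 UMIs had 7.26% of them from hepatocyte markers, the only deep barcode over 5%. Without barcodes over 5% the log2 ratio over all depths was 1.40. The deep sum without that barcode was not computed, so the sign of −0.28 is not shown to hold without it. The part of hepatocyte markers in the differences of the other lists was not tested.

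Cell cycle genes were lower on the NASH diet. Of 10 tested, 7 were lower (Top2a, Stmn1, Cdk1, Rrm2, Mcm5, Mcm6 and Ube2c) and 0 higher, with a median of −1.19 and a summed log2 ratio of −1.14 (−1.43 to −0.86). It stayed at −1.14 among barcodes with at least 2000 UMIs. Mcm5 and Mcm6, subunits of the replicative helicase, had 34 and 30 UMIs in chow and 1 each on the NASH diet. Top2a had 30 UMIs in 8 and 4 UMIs in 2 barcodes, and Mki67 had 12 UMIs in 6 and 1 UMI in 1, so few barcodes carried them in either library.

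Monocyte markers summed to 1094 CPM in the chow and 420 CPM in the NASH diet Kupffer barcodes, against 1319 and 753 CPM outside the gate. They were at 0 in 27 of 88 chow and 61 of 103 NASH diet barcodes. Of 16 genes, 6 could be tested and 3 were lower, and 2 were lower among barcodes with at least 2000 UMIs, where the summed log2 ratio was −1.23. Ly6c2, Chil3 and Cd209a, 3 markers of classical monocytes and their descendants, had 0 UMIs over all Kupffer barcodes of both libraries. Fn1 led the list in chow with 275 UMIs, of which 81.5% came from 1 barcode, and it was at 1284 and 673 CPM outside the gate. Plac8 had 216 UMIs in 49 chow barcodes and 28 UMIs in 14 NASH diet barcodes.

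The 12 genes with the lowest log2 ratios, under the rule for named genes, had between 22 and 145 chow UMIs and between 0 and 10 NASH diet UMIs. Beside Cxcl13, Csf2rb, Mcm5 and Mcm6 they were Rcc1, the exchange factor of Ran, Trpm2, a calcium-permeable channel, Ddx42 and Thrap3, which act in RNA processing, Itga5, an integrin chain of the fibronectin receptor, Samsn1, Ddhd1, a phospholipase, and Grk6, a receptor kinase. Rcc1 had 22 UMIs in 15 chow barcodes and 0 on the NASH diet, a level at least 2.89-fold lower when 3 counts in the pool are taken as the floor. Trpm2 had 61 UMIs in 35 and 4 UMIs in 2 barcodes, a log2 ratio of −2.08. Ddhd1 had 104 and 9 UMIs (−1.94), and Thrap3 74 and 6 (−1.93).

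The 12 genes with the highest log2 ratios were led by transcripts tied to ribosomal and mitochondrial RNA. Gm42418 (chr17:39846958-39848788, plus strand), a locus within a ribosomal RNA repeat, was at 3398 CPM in chow and 9309 CPM on the NASH diet, a log2 ratio of 1.45. AY036118, which overlaps it on the other strand, so that their reads may not be separable, was at 135 and 808 CPM (2.50). Lars2, the mitochondrial leucyl-tRNA synthetase, was at 149 and 659 CPM (2.07). All 3 were higher outside the gate as well, Gm42418 at 781 and 3342 CPM, AY036118 at 49.6 and 302 CPM and Lars2 at 63.9 and 234 CPM. Among Kupffer barcodes with at least 2000 UMIs their log2 ratios were 0.93, 0.78 and 0.77.

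The other 9 genes of that end had between 9 and 38 chow UMIs and between 11 and 36 NASH diet UMIs. They were Elk3, an ETS factor, Rb1cc1, which starts autophagy, Cavin2, a caveolar protein, Pank3, an enzyme of coenzyme A synthesis, Tpbgl, Rtcb, the tRNA ligase, Thoc6, Capg and Tbc1d17. Elk3 had 24 UMIs in 16 chow barcodes and 30 UMIs in 10 NASH diet barcodes, a log2 ratio of 1.47 and of 2.002 among deep barcodes. Cavin2 had 22 UMIs in 10 and 26 UMIs in 6 barcodes. Most UMIs of Elk3, Cavin2 and Tpbgl lay in barcodes that also met the endothelial gate: without those, Elk3 had 7 and 8 UMIs, Cavin2 2 and 5, and Tpbgl 1 and 3. For Rb1cc1, Pank3, Rtcb, Thoc6, Capg and Tbc1d17 most UMIs remained without them. Over barcodes of the endothelial gate that lay outside the Kupffer gate Elk3 was at 353 and 496 CPM and Cavin2 at 469 and 693 CPM. Rb1cc1 was at 35.6 and 113 CPM in Kupffer barcodes and at 35.8 and 46.0 CPM in the others.

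**Figure D4:**
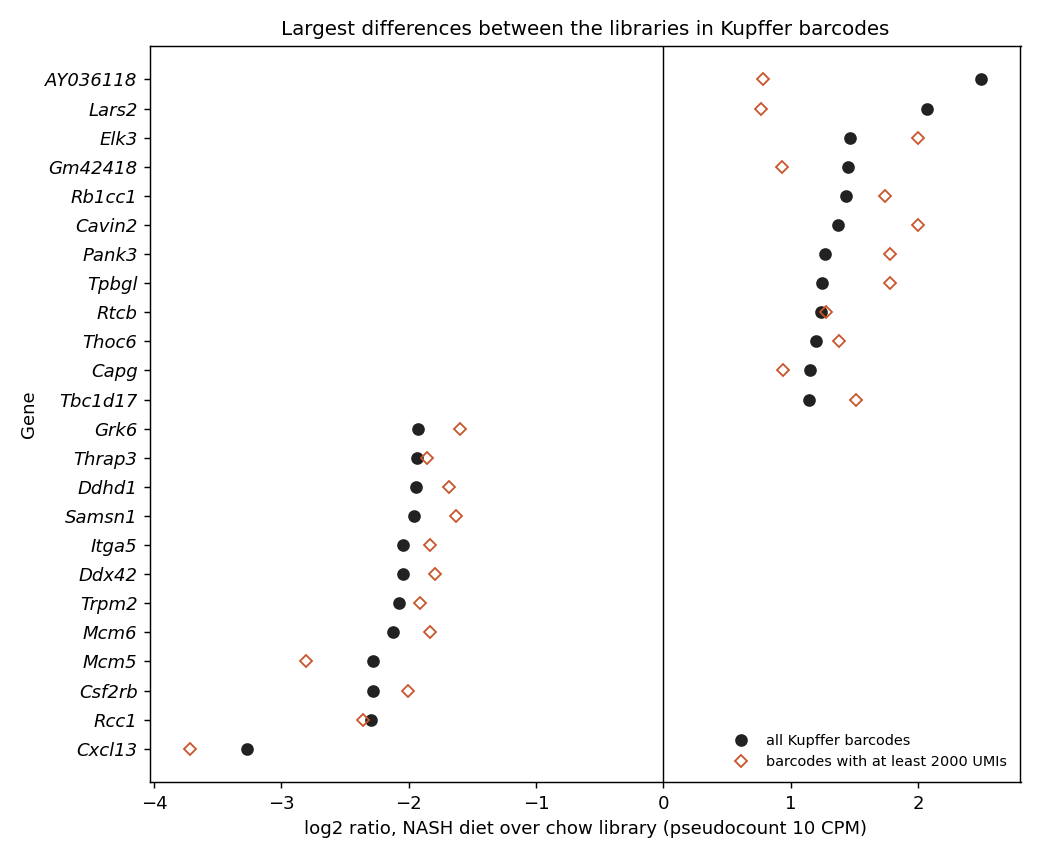
Log2 ratio of the NASH diet over the chow library (pseudocount of 10 CPM) for the 12 genes at each end under the rule for named genes, over all Kupffer barcodes (filled circles) and over those with at least 2000 UMIs (open diamonds). The 12 lower genes stay below −1 in both, while AY036118, Lars2, Gm42418 and Capg fall below 1 among deep barcodes.

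The difference in Kupffer identity genes was not the same in all depth classes. Among barcodes with fewer than 1000 UMIs, 19 in chow and 38 on the NASH diet, identity genes were at 6256 CPM (5011 to 7717) and 5798 CPM (5015 to 6670), which overlapped. With 1000 to under 2000 UMIs (12 and 41 barcodes) they were at 15431 CPM (13497 to 17565) and 4432 CPM (3890 to 5029). At 2000 to under 5000 UMIs (18 and 15 barcodes) they were at 18157 and 10877 CPM, and at 5000 or more (39 and 9 barcodes) at 16982 and 13076 CPM. The chow level was thus the higher in the 3 upper classes.

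MHC class II genes were higher in chow in some depth classes and lower in others. They were at 11936 and 10798 CPM with fewer than 1000 UMIs, at 11860 and 17546 CPM with 1000 to under 2000, at 8458 and 18087 CPM with 2000 to under 5000, and at 14100 and 7837 CPM with 5000 or more. Lipid-associated genes were at 24951.5 CPM in chow and 29909.5 CPM on the NASH diet with fewer than 1000 UMIs. With 1000 to under 2000 they were at 30525.6 and 33380.5 CPM, with overlapping intervals. They were higher on the NASH diet at 2000 to under 5000 UMIs as well, at 41662 CPM against 19370 CPM. Only at 5000 or more were they lower, at 21117 against 23113 CPM. In that deepest class 4 of the 9 NASH diet barcodes and 10 of the 39 chow barcodes also met the endothelial gate.

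**Figure D5:**
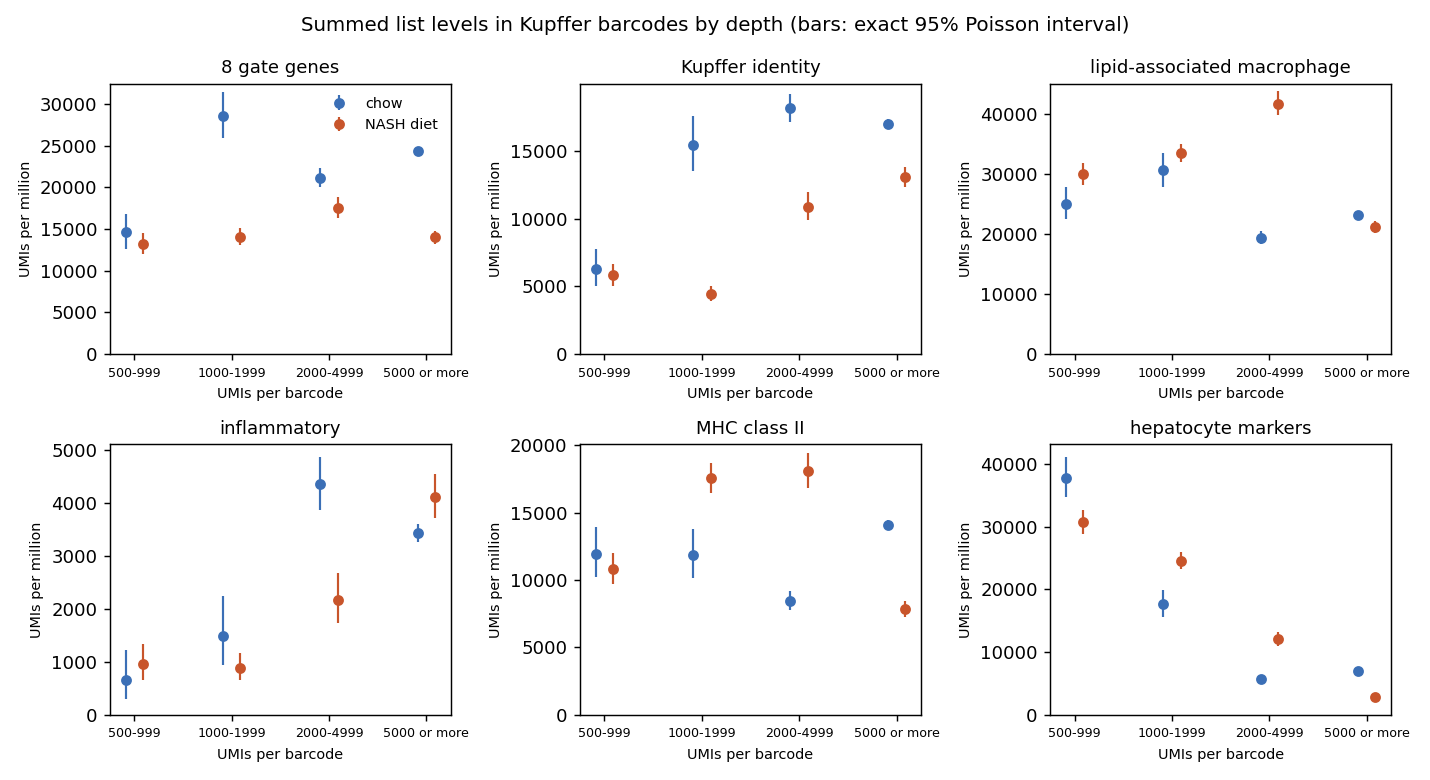
Summed level in CPM of 6 gene lists over Kupffer barcodes of 4 depth classes (UMIs per barcode), with exact 95% Poisson intervals, chow in blue and the NASH diet in orange. Identity genes are higher in chow in the 3 deeper classes, MHC class II genes are higher in chow in the shallowest and deepest classes only, and hepatocyte markers are highest in the shallowest class in both libraries.

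Shares of barcodes with a UMI were compared at equal total depth by drawing 1000 UMIs from each barcode. This left out 19 chow and 38 NASH diet barcodes and kept 69 and 65. Mitochondrial UMIs counted towards the 1000, and their median share over all Kupffer barcodes was 11.6% in chow and 35.0% on the NASH diet. A typical NASH diet barcode thus gave fewer UMIs of other genes, and the part of this in the shares was not tested. At that depth C1qa was read in 89.9% (80.2 to 95.8) of Kupffer barcodes after chow, against 90.8% (81.0 to 96.5) after the NASH diet. Clec4f was read in 87.0% (76.7 to 93.9) and 50.8% (38.1 to 63.4), and Vsig4 in 82.6% (71.6 to 90.7) and 46.2% (33.7 to 59.0). Timd4 was read in 26.1% (16.3 to 38.1) and 6.15% (1.70 to 15.0), and Marco in 37.7% (26.3 to 50.2) and 9.23% (3.46 to 19.0). These genes chose the members, so their shares describe the 2 libraries with no test, and C1qa had about the same share in both, while the shares of the other 4 were the lower in the NASH diet library. In 1675 chow and 1003 NASH diet barcodes outside the gate with at least 10% hepatocyte markers, median depths of 24325 and 17389 UMIs before the draw, these 5 genes were read in at most 1 barcode, while the kept Kupffer barcodes had medians of 6793 and 1547 UMIs.

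At 2000 UMIs, with 57 and 24 barcodes kept, Timd4 was read in 45.6% (32.4 to 59.3) and 33.3% (15.6 to 55.3) and Clec4f in 91.2% (80.7 to 97.1) and 75% (53.3 to 90.2). At 500 UMIs Timd4 was read in 6.82% and 4.85% and Clec4f in 71.6% and 44.7%.

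The combination of the markers was counted at 1000 UMIs. Both Timd4 and Clec4f were read in 16 of 69 barcodes after chow, against 4 of 65 after the NASH diet, Clec4f without Timd4 in 44 and 29, Timd4 without Clec4f in 2 and 0, and neither in 7 and 32. Without the draw, Timd4 was read in 55.7% and 15.5% of the Kupffer barcodes and Clec4f in 83.0% and 62.1%. Outside the gate genes, Cd163 was read in 29.0% (18.7 to 41.2) and 12.3% (5.47 to 22.8), Folr2, a folate receptor, in 46.4% (34.3 to 58.8) and 26.2% (16.03 to 38.5), and Mrc1 in 49.3% (37.0 to 61.6) and 18.5% (9.92 to 30.03).

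Genes of recruited or activated macrophages were read in few barcodes at that depth. Trem2 was read in 2 of 69 and 3 of 65 barcodes, Ccr2, the monocyte chemokine receptor, in 1 and 3, Cd9 in 5 and 8, and Il1b in 10 and 4. Cd9 was also read in 2.69% and 0.499% of the hepatocyte-rich barcodes, and Cd36, read in 15 and 8 Kupffer barcodes, in 0.418% and 2.69% of those.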

How the data were processed

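Single-cell RNA of 2 mouse liver libraries, 1 per diet, was measured with the 10x Genomics 3′ version 3 chemistry, per the labels' protocols. The deposited values are raw UMI counts, whole numbers for each gene in each barcode. Per the file headers, Cell Ranger 3.0.2 made them. The submitters' processing notes name Cell Ranger 3.1.0, Seurat and mm10. Gene coordinates came from GENCODE M21, which held 30934 of 31053 gene IDs (99.6%), and promoters from RefSeq GRCm38.p6.

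Levels are UMIs summed over the Kupffer barcodes of a library, as CPM of their UMIs. Genes with at least 20 UMIs over both libraries were compared as log2 ratios with a pseudocount of 10 CPM. Mitochondrial and gate genes were left out of the counts of genes. Intervals are exact Poisson for levels, Clopper-Pearson for shares and conditional binomial for ratios, and those of ratios hold without the pseudocount. They cover counting error only. The calculation of ratios was checked on simulated Poisson counts with known folds. These have no uneven spread of UMIs among barcodes, so they do not bear on how the intervals cover real cells. Doublets were scored with Scrublet, and none was taken out. In an alternative the highest scores of each library, 0.8% per 1000 barcodes, were left out. Other alternatives changed the gate, limits, denominator, pooling, pseudocount, gene minimum and subtraction of the other barcodes' profile.

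The genes named were the gate genes, the 12 with the highest and the 12 with the lowest log2 ratio, the 12 leading over other barcodes, and of each list the 4 with the most UMIs and the most extreme ratios at both ends. The 12 at each end had to be read in at least 5 barcodes, with at most 25% of UMIs in 1 barcode, and be 2-fold higher than in other barcodes of the higher library. Other genes were named after their values were seen. Some genes of the lists are not reported here. The members and lists were chosen with earlier results of these data known. Analyses used Python 3.11.15, numpy 2.4.6, scipy 1.17.1 and scanpy 1.11.5.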

Additional observations from a re-analysis of the deposited data

Results flagged for a closer look

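In the NASH diet library, 13 barcodes with over 50% mitochondrial UMIs met the rest of the Kupffer gate and lay outside the barcodes described, against 1 in chow. Their median mitochondrial share was 54.8%. Ddx42, an RNA helicase gene, was higher in Kupffer than in other barcodes in chow (log2 ratio 1.02) and lower in the NASH diet library (−1.04), from 28 and 1 Kupffer UMIs. Ddx42 was named for its low NASH diet level, which is under the floor of 3 counts, and passed the rule through chow alone, so these opposite values follow from how it was chosen. The difference between the libraries was not tested.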

How the results depend on the processing

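With 1 library per diet, diet, mouse and library preparation cannot be told apart, and leaving out a replicate was impossible. No paired analysis was possible because each diet had 1 library. The shallow NASH diet pool limits genes under about 3 UMIs. The cause of the shifts given here was not tested. Values are log2 ratios of summed levels unless named otherwise.

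With mitochondrial UMIs left out, 205 genes were higher and 331 lower, and identity genes were at −0.59, MHC class II at 0.16, hepatocyte markers at 1.09, inflammatory genes at −0.22, interferon genes at −0.43 and lipid-associated genes at 0.59. With a mitochondrial limit of 30% the NASH diet share was 1.60%, 173 genes were higher and 385 lower, and the same 6 lists were at −0.50, −0.25, 0.0466, −0.0437, −0.48 and 0.29. With gate genes at 1% of UMIs or more the NASH diet share was 1.44%, identity genes were at −0.59, MHC class II at 0.0604, hepatocyte markers at 1.38, inflammatory genes at −0.31 and lipid-associated genes at 0.58, while the log2 ratio of Col1a1 turned to −1.15 and the log2 ratio of Fabp4 to −0.0382. With 4 gate genes the NASH diet share was 1.69%, identity genes were at −0.69, MHC class II at −0.35, hepatocyte markers at 0.75 and inflammatory genes at −0.23. With at least 1000 UMIs the chow share was 2.45%, identity genes were at −0.76 and hepatocyte markers at 0.65.

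As the mean over barcodes, 1455 genes were lower, 356 were 4-fold higher over other barcodes, identity genes were at −1.20, MHC class II at 0.23, hepatocyte markers at 0.66, inflammatory genes at −0.99 and lipid-associated genes at 0.48, and the log2 ratio of Cxcl9 turned to −1.11. With the profile of other barcodes subtracted, 76 genes were higher, identity genes were at −0.74, MHC class II at 0.0171, hepatocyte markers at 0.66 and lipid-associated genes at 0.40. With a pseudocount of 2 CPM 814 genes were lower and 1128 were 4-fold higher over other barcodes, and with 50 CPM 40 were higher, 66 lower and 145 over others. A minimum of 1 UMI gave 311 higher and 1006 lower genes, and one of 50 UMIs gave 48 and 212. Hepatocyte markers were at 1.40 without barcodes over 5% hepatocyte markers and at 1.33 without the highest doublet scores.

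The 5 alternatives that follow were chosen after seeing the data. With Kupffer barcodes under 2000 UMIs taken out, the shares were 1.25% for chow and 0.549% for the NASH diet, 178 genes were higher and 420 lower, and identity genes were at −0.46, MHC class II at −0.29, hepatocyte markers at −0.28, inflammatory genes at −0.00433, interferon genes at −0.52 and lipid-associated genes at 0.27. The hepatocyte value there includes the chow barcode with a marker share of 7.26%. Without barcodes that also met the endothelial gate, identity genes were at −0.94 and mesenchymal markers at 0.12, from −1.16. Without mitochondrial UMIs and barcodes over 5% hepatocyte markers, 240 genes were higher and 332 lower, and identity genes were at −0.62, MHC class II at 0.12, hepatocyte markers at 1.64, inflammatory genes at −0.25, interferon genes at −0.46 and lipid-associated genes at 0.60. Without its leading gene, the sum was at −0.33 for lipid-associated genes (Apoe), −0.25 for MHC class II (Cd74), 0.72 for hepatocyte markers (Alb) and −0.31 for inflammatory genes (Ccl6), and inflammatory genes were at −0.72 without Cxcl9. Under all alternatives, 75 values of the shares, counts of genes and list sums moved, beyond their interval or for counts by over 1.5 times, and 79 did not. Of the values for single genes, 411 moved beyond their interval, 3 reversed and 2184 did neither.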

Other observations

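Saa3, an acute phase gene, had 37 UMIs in 25 chow Kupffer barcodes and 0 in the NASH diet library, and was at 614 and 9.63 CPM in the other barcodes. Ccr2 had 3 UMIs in 3 chow barcodes and 16 UMIs in 6 NASH diet barcodes, with 62.5% of the latter in 1 barcode. A list of genes reported for an endothelial-like Kupffer subset had 8 tested genes, with 0 past 2-fold and a median log2 ratio of 0.15. Among barcodes with at least 2000 UMIs 4 of the 8 were at least 2-fold higher on the NASH diet, with a median of 0.78 and a summed log2 ratio of 0.58. Over all depths the summed log2 ratio was 0.00031, and −0.018 without barcodes that also met the endothelial gate. The barcodes that also met the endothelial gate held 56.4% of the list's chow UMIs and 53.3% of its NASH diet UMIs. These genes were chosen after their values were seen.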
